A study of Mus musculus with 4 samples.

Results

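The difference between the XCL1 effect in wild-type (WT) cells and that in XCR1-deficient (KO) cells was examined in mouse type 1 conventional dendritic cells (cDC1), as the series' title names them. For each gene-level feature of the array, the log2 signal with LPS alone was subtracted from that with LPS and XCL1 in each genotype, and the KO result was then subtracted from the WT result. A positive value means that XCL1 went with a higher signal change in WT than in KO, and a negative value the reverse. The account is held to features with a mean log2 signal of at least 7 over the 4 arrays, which were 9786 of 41345 features and lay above percentile 76.3 of all mean signals. They held 5425 of the 17527 genes that could be named from a single symbol, leaving aside predicted names and small RNAs. Just inside the limit lay Ap4e1, Ercc2 and Tbcel, with differences of -0.27, -0.13 and -0.16, and just outside it lay Pold4, Srp19 and Mcm7, with differences of 0.50, 0.35 and -0.23.

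The 4 groups were C57BL/6 WT cells with LPS, WT cells with LPS and XCL1, XCR1-deficient cells with LPS, and XCR1-deficient cells with LPS and XCL1. LPS and recombinant mouse XCL1 were each used at 100 ng/ml, all cells had received LPS, and mice were 10 weeks old and labelled female. The kind of deletion, the tissue and the treatment time were not given in the sources used here. Each group had 1 array of bulk RNA, so no value below has an error, a replicate check or a p-value, and fewer cells of a type cannot be told apart from less RNA per cell. A 1.5-fold difference (0.58 on the log2 scale) is used as a descriptive threshold.

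XCL1 is a chemokine released mainly by activated NK cells and CD8 T cells. Its receptor XCR1 couples to inhibitory G proteins and is the hallmark surface receptor of cDC1, the dendritic cells that cross-present antigen. The KO pair therefore gives the comparison for what the WT pair shows. LPS acts through Toll-like receptor 4 with its co-receptor MD-2 and turns on cytokine, chemokine and interferon genes in dendritic cells.

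The arrays correlated with each other at 0.965 to 0.987 over these features. Xcr1 itself had log2 signals of 6.42 and 7.19 on the WT arrays without and with XCL1, and of 5.54 and 5.11 on the KO arrays, so it was too dim to be included. Of 28 measured genes on the cDC1 identity list, 16 had a mean signal of at least 7 and the others were dimmer. Among the 16 were Id2, Irf8, Flt3 and Cd24a, the first at 12.1 to 12.2. The cDC1 integrin gene Itgae was dim, at 5.03 to 5.37, and Batf3 lay at 6.78 to 6.98. Xist, the transcript of the inactive X chromosome, gave 7.95 and 7.91 in WT against 4.64 and 4.57 in KO. The Y-linked genes Kdm5d, Eif2s3y and Uty were above 7 on all 4 arrays, against the female label, and their differences between the XCL1 effects were 0.0003, 0.07 and 0.05. Array names carry 2 prefixes, 1 for each genotype, so that each XCL1 pair lies within a prefix and prefix cannot be told apart from genotype.

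Most features past 1.5-fold were not named genes. The XCL1 effect was higher in WT for 275 features (2.81%) and lower for 331 (3.38%) of the 9786, whereas over all 41345 features these shares were 5.18% and 5.9%. Among the 5425 named genes, 23 were higher (0.424%) and 20 lower (0.369%). Unnamed features passed the threshold in 502 of 3348 cases (15%), and features of a single symbol in 79 of 5960 (1.33%). The spread of the difference over named genes was an SD of 0.19, and the central 95% of them lay between -0.40 and 0.36.

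More of the difference came from the KO pair than from the WT pair. Within the KO pair 367 bright features moved 1.5-fold, 205 higher with XCL1 and 162 lower, against 161 within the WT pair, 73 higher and 88 lower. Over all features the shares were 5.57% in the KO pair and 4.76% in the WT pair. Named genes showed the same order, with 20 in the KO pair and 6 in the WT pair, and the SD of their XCL1 effects was 0.16 in KO and 0.13 in WT. The next counts are of features whose difference between the pairs also passed 1.5-fold. A pattern in which WT moved 1.5-fold while KO stayed within 1.2-fold was met by 49 features and by 1 named gene, Smad3. The converse, KO moving and WT staying, was met by 184 features and 10 named genes. Over all 41345 features, dim ones included, the counts were 669 for WT and 878 for KO, so the gap was wider among bright features. The other 32 named genes met neither pattern, some with a pair near 0, such as Khnyn at -0.05 in WT and 0.57 in KO. The KO effect was the larger in size in 34 of the 43 named genes past the threshold. Over the whole array that held for 2485 of the 4579 features past it. The pairs moved in opposite directions in 34 of the 43 as well, and in 3742 of the 4579. Across the 5425 named genes, which are not independent replicates, the XCL1 effects of the genotypes had a Pearson's r of 0.154 and a Spearman's rho of 0.122.

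**Figure D1:**
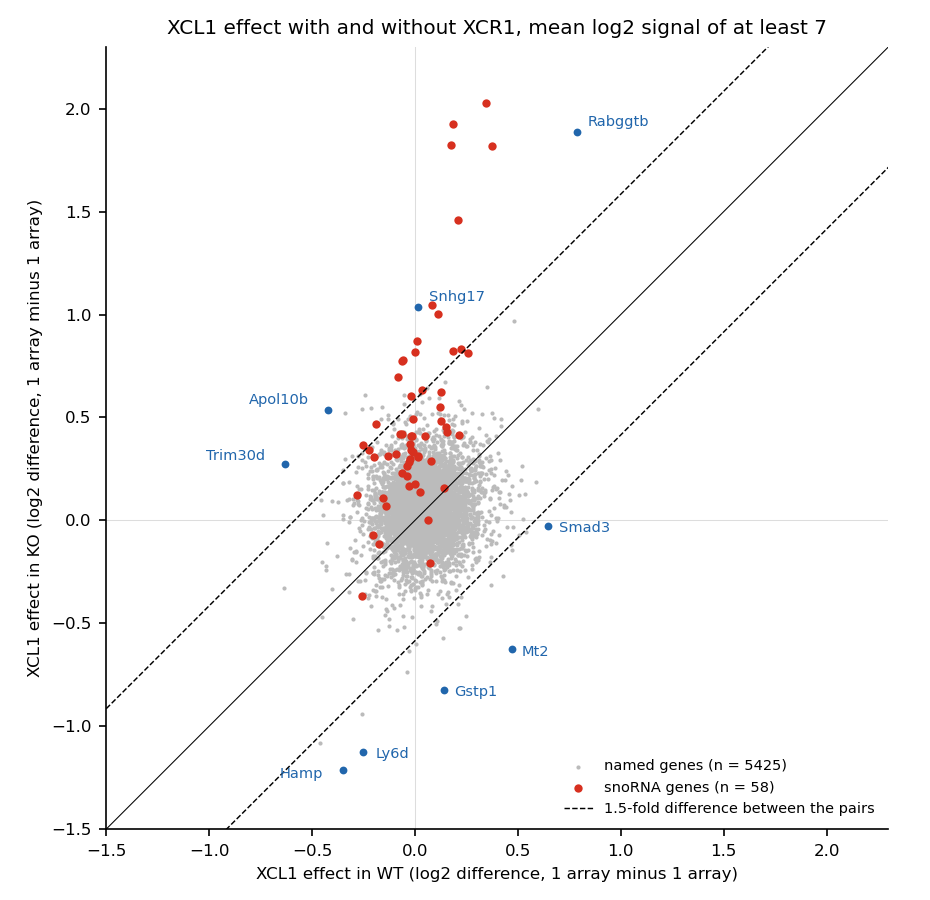
Each point is a gene with a mean log2 signal of at least 7, placed by its XCL1 effect in WT (x axis, log2) and in KO (y axis, log2), with 5425 named genes in grey, 9 of them labelled in blue, and 58 snoRNA genes in red. Dashed lines mark a 1.5-fold difference between the effects; 18 snoRNA genes lie above the upper line and none below the lower line.

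Small nucleolar RNAs (snoRNAs) past the threshold all lay in 1 direction, lower in WT than in KO. These short RNAs guide chemical modification or processing of ribosomal and spliceosomal RNA, with H/ACA types (Snora genes) directing pseudouridylation and C/D types (Snord genes) directing methylation of the ribose. Of 58 snoRNA genes with a bright feature, 18 had an XCL1 effect at least 1.5-fold lower in WT than in KO and 0 had a higher one, beside shares of 3.38% and 2.81% over all bright features. Their median difference was -0.42, and 55 of 58 lay below 0, where the median of named genes was -0.01. H/ACA genes passed in 14 of 21 cases, with a median of -0.65, and C/D genes in 3 of 34, with a median of -0.32. Protein-coding features passed in 48 of 5625 cases, 25 higher and 23 lower.

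The snoRNA difference lay in the KO arrays. Within the WT pair the snoRNA genes had a median XCL1 effect of -0.01, ranging from -0.28 to 0.38, and none moved 1.5-fold. Within the KO pair the median was 0.41, ranging from -0.37 to 2.03, and 54 of 58 were above 0. The KO array with LPS and XCL1 gave the highest of the 4 signals for 48 of the 58, among them all 18 past the threshold. The KO array with LPS alone gave the lowest signal for 39. With LPS alone the KO signal was below the WT signal for 46 of the 58, and with LPS and XCL1 it was above it for 53.

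Snora61, an H/ACA snoRNA, had log2 signals of 8.04 and 8.23 in WT without and with XCL1, and of 7.33 and 9.25 in KO, a difference of -1.74. Snora73b and Snora73a, copies of the U17 RNA that takes part in ribosomal RNA processing, behaved alike. Snora73b gave 8.08 and 8.43 in WT and 7.58 and 9.61 in KO (-1.69), and Snora73a, whose probes may read both copies, gave 7.75 and 8.12 in WT and 7.37 and 9.19 in KO (-1.44). Snord13, the C/D RNA that guides acetylation of 18S ribosomal RNA, gave 8.99 and 9.17 in WT and 8.71 and 10.53 in KO (-1.65). Each of these RNAs was lowest on the KO array with LPS and highest on the KO array with LPS and XCL1, and the WT values lay between. Snora31 followed at 7.83 and 8.04 in WT and 7.43 and 8.89 in KO (-1.25). The other 13 members past the threshold ran from Snora7a (-0.96) and Snora16a (-0.89) to Snora41 (-0.60), and the C/D members Snord15a and Snord17 were at -0.62 and -0.61.

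The U3 RNA gene Rnu3a, a C/D-type RNA needed for processing of the ribosomal precursor that RefSeq lists with the small nuclear RNAs, had the lowest value of any named RNA here. It read 7.73 and 7.80 in WT and 7.01 and 9.27 in KO on the log2 scale, a difference of -2.18. Rnu12, an RNA of the minor spliceosome, lay at -0.59, the Y RNA gene Rny1 at -0.64 and Rprl2, related to the RNA of ribonuclease P, at -0.59. A further 13 features that carry several small nuclear RNA symbols each were all lower in WT by 1.5-fold, with a median of -0.63, but some of them share identical values and are not separate measurements. Another 18 features with several snoRNA symbols had a median of -0.45, and none of them reached the threshold.

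**Figure D2:**
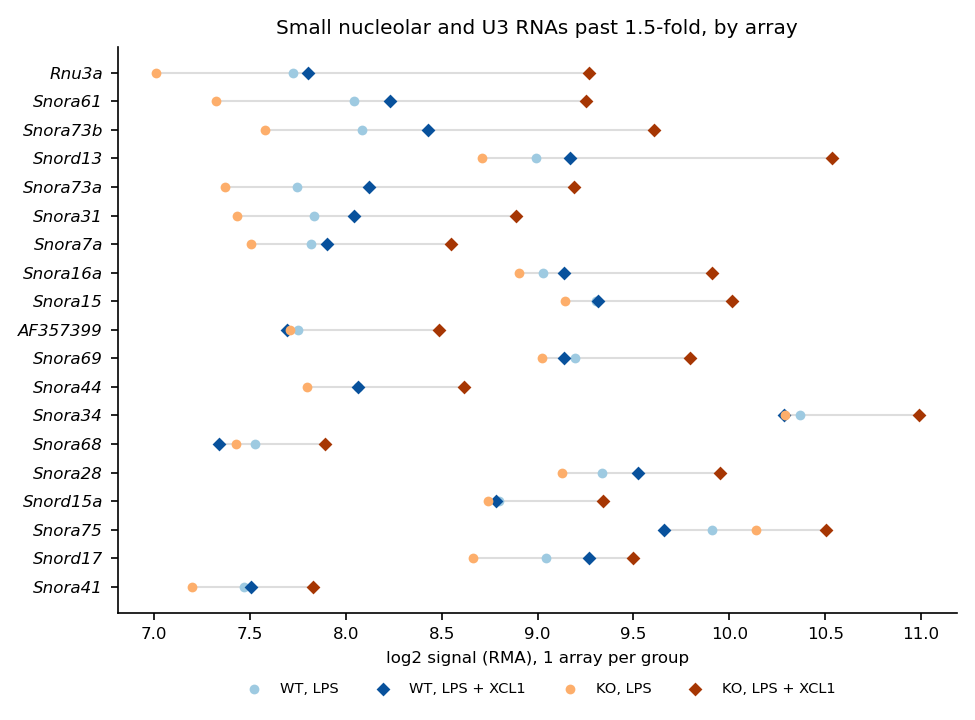
Log2 signals (x axis) of Rnu3a and the 18 snoRNA genes past 1.5-fold, 1 symbol per array, with circles for LPS, diamonds for LPS and XCL1, blue for WT and orange to brown for KO. In all 19 rows the KO array with LPS and XCL1 is the highest, as for Rnu3a at 9.27 against 7.01 to 7.80 on the other arrays.

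The size of the difference varied with the type and length of the RNA. Of 23 snoRNA genes of at least 100 nucleotides in RefSeq, 14 passed the threshold, with a median of -0.62, and of 35 shorter ones 4 passed, with a median of -0.32. Across the 58 genes, length and difference had a Pearson's r of -0.419 and a Spearman's rho of -0.443, given as a description of RNAs read in the same 4 RNA samples. Length and type largely coincide, since 19 of the 21 H/ACA genes and 4 of the other 37 reach that length. Mean signal and difference had an r of 0.273.

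**Figure D3:**
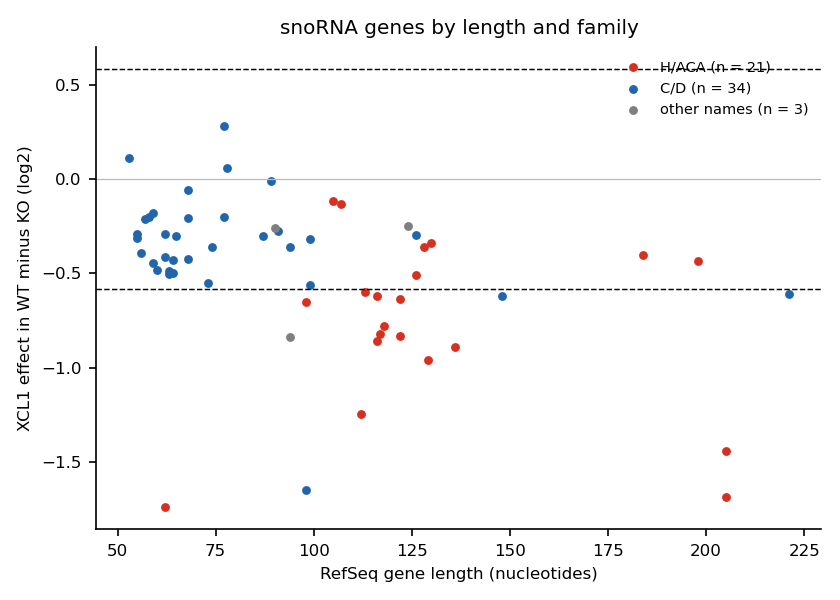
XCL1 effect in WT minus that in KO (y axis, log2) against RefSeq gene length in nucleotides (x axis) for 58 snoRNA genes, with H/ACA types in red, C/D types in blue and others in grey; dashed lines mark 1.5-fold. H/ACA members have a median of -0.65 and C/D members of -0.32, and Snora61 (-1.74) and Snord13 (-1.65) lie low although both are under 100 nucleotides.

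Most mouse snoRNAs are cut out of introns of host genes, and the measured hosts of these 58 genes had a median near 0. A measured host was available for 47 of the 58 snoRNA genes, and the 39 hosts had a median difference of 0.0077. For the 32 hosts with a mean signal of at least 7 it was 0.0072. The gene list of snoRNA hosts, which also holds hosts outside these 39, lay lower. Its median was -0.17 over 16 bright members, 14 of them below 0 and 2 above. Their median XCL1 effect was 0.0026 in WT and 0.09 in KO. Snora61, Snora16a and Snora44 lie in Snhg12, a noncoding host, which had a difference of 0.13 at a mean signal of 6.24, below the limit used here. Snora31 lies in Tpt1, which encodes a translationally controlled tumour protein (0.13), Snora7a in the ribosomal protein gene Rpl32 (0.12) and Snora15 in the chaperonin gene Cct6a (0.02). Snora73a and Snora73b lie in Snhg3 (-0.36), whose mean signal of 6.89 is also below the limit, and Snora34 in Kansl2 (-0.25). Over the 47 pairs, snoRNA and host had an r of 0.0302 and a rho of -0.165.

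Some named genes hold a snoRNA gene within them in RefSeq. Of 170 such genes 0 were higher and 4 lower, with a median of -0.05, and of the other 5255 genes 23 were higher and 16 lower, with a median of -0.01. The 4 were Rabggtb, a subunit of the enzyme that prenylates Rab proteins, the noncoding host Snhg17, the dipeptidase gene Dpep2 and Ptcd3, of mitochondrial translation. Rabggtb passed the limit on mean signal through its arrays with XCL1. It had log2 signals of 6.67 and 7.46 in WT and of 6.31 and 8.20 in KO, higher with XCL1 in both pairs and more so in KO, a difference of -1.10. Snhg17 gave 7.86 and 7.88 in WT and 7.82 and 8.86 in KO (-1.02), so that a single array stood apart. Probe sets of 1 host did not always share the value, and which part of a transcript they read is not given in the sources used here. Nop56, a core protein of C/D particles, had a difference of -1.15 from a probe set with a mean signal of 7.86 and of 0.02 from one with a mean of 9.72. Taf1d, a subunit of the RNA polymerase I initiation factor, ranged from -0.82 to 0.10 over its sets. Ptcd3 gave -0.59 and -0.02.

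Mt2, a metallothionein gene, had the highest difference among named genes, and its neighbour Mt1 was among the 15 highest. Metallothioneins are small cysteine-rich proteins that bind zinc and copper, and the factor MTF1 turns their genes on through metal response elements. Mt2 had log2 signals of 7.50 and 7.97 in WT without and with XCL1, and of 7.57 and 6.94 in KO, so it was higher with XCL1 in WT and lower in KO, with a difference of 1.10. Mt1 gave 7.67 and 7.92 in WT and 7.51 and 7.05 in KO, a difference of 0.71. For each gene, WT and KO lay close together with LPS alone and apart with LPS and XCL1. They were the 2 of 11 bright members of the metallothionein and zinc transport list past the threshold, whose median was 0.0034, and Mtf1 lay at -0.32. The 250 bases before each start site are given from RefSeq on GRCm38.p6, because both genes moved together, with matches to the core of a metal response element (TGCACNC or TGCGCNC, either strand) in capitals.
Mt1 upstream: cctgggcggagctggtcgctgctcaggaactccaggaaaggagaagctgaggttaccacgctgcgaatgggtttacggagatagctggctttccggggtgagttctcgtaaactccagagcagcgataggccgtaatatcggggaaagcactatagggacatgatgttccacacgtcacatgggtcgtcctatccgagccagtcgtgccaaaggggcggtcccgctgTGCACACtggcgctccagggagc
Mt2 upstream: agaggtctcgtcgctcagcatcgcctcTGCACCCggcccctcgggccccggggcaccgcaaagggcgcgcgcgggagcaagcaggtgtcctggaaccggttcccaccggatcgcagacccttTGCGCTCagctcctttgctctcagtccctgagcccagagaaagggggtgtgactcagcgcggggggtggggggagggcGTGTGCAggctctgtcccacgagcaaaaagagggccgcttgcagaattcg
The Mt1 window is chr8:94178839-94179088 on the plus strand and holds 1 match, from -23 to -17 relative to the start site. The Mt2 window is chr8:94172368-94172617 on the plus strand and holds 3 matches, 2 on the plus strand and 1 on the minus strand. Each window ends at the RefSeq start site, so matches past that site were not counted, and the start site used in these cells was not examined. Of 32851 RefSeq windows of that length, 21.4% held at least 1 match and 1.26% at least 3, and a match is a description of letters, not a binding site.

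After Mt2, the highest differences were those of Gstp1, Ly6d and Hamp, and in all 3 the KO pair moved further than the WT pair. Gstp1, a glutathione transferase with near-identical copies that the probes may also read, had signals of 7.46 and 7.60 in WT and 7.36 and 6.53 in KO (0.97). Ly6d, a surface protein gene of B cell and plasmacytoid DC progenitors, gave 9.89 and 9.64 in WT and 9.54 and 8.41 in KO (0.87). Hamp, which encodes the iron hormone hepcidin, gave 7.71 and 7.35 in WT and 9.07 and 7.86 in KO (0.86). In Gstp1 and Ly6d the KO array with LPS and XCL1 was the low one, while in Hamp the KO array with LPS alone was the high one.

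Ly96, Ifna4 and Rras were likewise lower with XCL1 in KO by more than in WT. Ly96, the MD-2 co-receptor of Toll-like receptor 4, had signals of 10.15 and 9.90 in WT and 10.30 and 9.36 in KO (0.68). The interferon gene Ifna4, one of a family of near-identical genes, gave 7.91 and 7.45 in WT and 7.95 and 6.87 in KO (0.62). Rras, a small GTPase, gave 9.16 and 9.12 in WT and 8.96 and 8.22 in KO (0.69). The KO array with LPS and XCL1 was the lowest for each of them, and Ly96 and Ifna4 were lower with XCL1 in WT as well.

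Smad3, the transcription factor downstream of TGF-beta receptors, was the named gene whose difference lay in WT. It read 7.26 and 7.90 in WT and 7.56 and 7.53 in KO, so the XCL1 effect was 0.65 in WT and -0.03 in KO, a difference of 0.68. The WT array with LPS was the low one, and the KO arrays lay between the WT arrays. The next 3 genes came near that pattern. Serpinb9b, a serpin gene with close relatives, had XCL1 effects of 0.47 in WT and -0.12 in KO (0.59), Abhd4, a lipid hydrolase, of 0.54 and -0.06 (0.60), and Dexi of 0.47 and -0.14 (0.61). Tnfrsf9, the co-stimulatory receptor 4-1BB, lay just under the threshold, with signals of 9.02 and 9.53 in WT and 8.98 and 8.91 in KO (0.58).

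The remaining higher genes were Cuta (0.74), the Mediator subunit Med9 (0.74), the mitochondrial genes Higd2a (0.71), Mrpl54 (0.68) and Atp5h (0.60), the tubulin cofactor Tbca (0.70), the proapoptotic Siva1 (0.61), the histone gene H2ac10 (0.61), Uprt (0.61), Naip6 (0.60) and Zfp691 (0.59). In each of these 11 genes the XCL1 effect in KO was below 0, from -0.64 for Uprt to -0.27 for Tbca. In WT it was above 0 in 10 of them, from 0.0037 for Atp5h to 0.43 for Tbca, and -0.03 in Uprt.

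**Figure D4:**
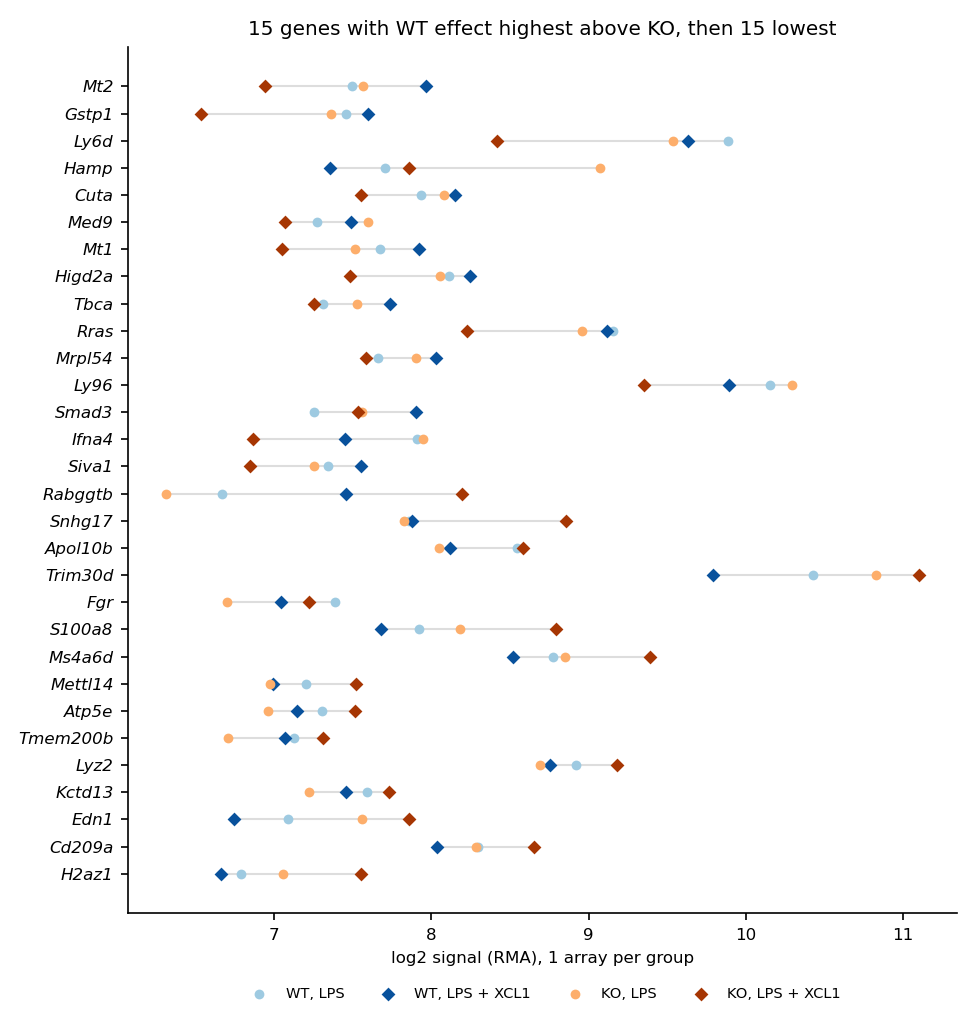
Log2 signals (x axis) on the 4 arrays of the 15 named genes with the highest differences (Mt2 to Siva1) and the 15 with the lowest (Rabggtb to H2az1), with circles for LPS, diamonds for LPS and XCL1, blue for WT and orange to brown for KO. For most of the upper genes the KO array with LPS and XCL1 is the lowest (Gstp1, 6.53), and for most of the lower genes it is the highest (Trim30d, 11.10).

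On the lower side, Trim30d, Apol10b and Gbp8 were lower with XCL1 in WT and higher in KO. Trim30d, of an interferon-inducible family of close copies, had signals of 10.43 and 9.79 in WT and 10.83 and 11.10 in KO (-0.90). Apol10b, an apolipoprotein L family gene, gave 8.54 and 8.12 in WT and 8.05 and 8.59 in KO (-0.96). Gbp8, an interferon-inducible GTPase gene, lay at -0.59 with XCL1 effects of -0.27 in WT and 0.31 in KO. All belong to families of similar genes, so probes may read more than 1 member.

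Fgr, a Src-family kinase of myeloid cells, had signals of 7.39 and 7.05 in WT and 6.70 and 7.22 in KO (-0.86). Ms4a6d, a membrane gene of monocytes and macrophages, gave 8.78 and 8.52 in WT and 8.85 and 9.39 in KO (-0.80). Fgr was highest on the WT array with LPS, and Ms4a6d on the KO array with LPS and XCL1. S100a8, a calcium-binding alarmin of neutrophils and monocytes, gave 7.92 and 7.68 in WT and 8.18 and 8.79 in KO (-0.85). Lyz2, the lysozyme gene of macrophages and neutrophils, gave 8.92 and 8.75 in WT and 8.69 and 9.18 in KO (-0.66). Cd209a, a lectin of the cDC2 and monocyte lineages, gave 8.30 and 8.04 in WT and 8.29 and 8.65 in KO (-0.63). S100a8, Lyz2 and Cd209a were highest on the KO array with LPS and XCL1 too, and the WT arrays of each lay lower with XCL1 than without.

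The cDC2, neutrophil and macrophage marker lists had medians below 0. The median was -0.33 over 5 bright cDC2 markers, 4 of them below 0, with a median XCL1 effect of -0.06 in WT and 0.31 in KO. It was -0.16 over 5 neutrophil markers, 3 of them below 0, and -0.13 over 7 macrophage and monocyte markers, 5 of them below 0. The cDC2 median was thus lower than that of any of the 23 pathway lists. Signals of the 12 neutrophil markers, added on the linear scale, came to log2 values of 11.1 to 11.5 over the 4 arrays, the 15 macrophage and monocyte markers to 12.1 to 12.2 and the 10 cDC2 markers to 11.1 to 11.2. The neutrophil sum was highest on the KO array with LPS and XCL1, 11.48 against 11.37 on the KO array with LPS, and 11.17 and 11.13 in WT. Of the bright members, 1 of 5 neutrophil, 1 of 7 macrophage and 1 of 5 cDC2 markers passed the threshold, all of them lower. They were S100a8, Lyz2 and Cd209a, already named above among the 15 lowest genes, so they add no separate count. Over all named genes 0.369% were lower and 0.424% higher, and lists this short cannot be set against such shares. Other cDC2 members were the integrin gene Itgam (-0.47), Sirpa (-0.33), Clec12a (-0.19) and the transcription factor gene Irf4 (0.0014). The other neutrophil genes were S100a9 (-0.38), Csf3r (-0.16), Lcn2 (0.07) and Ngp (0.05). The other macrophage genes ran from Fcgr1 (-0.19) to Cd68 (0.29), with Adgre1 at 0.05. The defining neutrophil gene Ly6g was dim, at 4.11 to 4.31, and so were Clec10a and Mgl2 of cDC2, at 4.28 to 4.65 and 3.63 to 4.05. The plasmacytoid DC list, which holds Ly6d, had 1 of 8 members higher, sums of 12.0 to 12.1, and Siglech at 8.66 and 8.58 in WT and 8.14 and 8.01 in KO. B and T cell markers had medians above 0, 0.14 over 7 bright members and 0.04 over 4, with 0 past the threshold. NK, mast cell and stromal lists had medians of -0.05, -0.14 and -0.18 over 4, 2 and 2 members. The 11 B cell markers summed to 12.96 and 12.96 in WT, without and with XCL1, and to 12.69 and 12.64 in KO. Among them Ighm lay at 12.1 to 12.3. The part of other cell types in these differences was not tested.

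Edn1, which encodes endothelin-1, had signals of 7.09 and 6.75 in WT and 7.56 and 7.86 in KO (-0.64). The other lower genes were Mettl14, of the RNA adenosine methyltransferase (-0.76), Atp5e, of the mitochondrial ATP synthase (-0.71), Tmem200b (-0.66), Kctd13 (-0.64), the histone variant H2az1 (-0.62), Khnyn, a cofactor of antiviral RNA decay (-0.62) and the ribosomal protein gene Rpl7 (-0.59). H2az1 was at 6.79 and 6.66 in WT and at 7.06 and 7.55 in KO, so it passed the limit on mean signal through its KO arrays. Of the 43 named genes past the threshold, 32 had at least 7 on every array. A second and dimmer probe set of Atp5e gave -0.0008. Second sets of Atp5h and Rpl7, at mean signals of 5.71 and 4.68, gave -0.64 and 0.31, opposite to the bright ones. Over the 121 genes with more than 1 bright probe set, 6 had at least 1 set past the threshold and 0 had all of them past it. Gapdh, of glycolysis, had differences of 0.43, 0.50 and 0.76 from 3 sets, so they shared the direction and 1 of them passed. Cd24a, a cDC1 surface gene, gave 0.17 from its brighter set and 0.90 from the other.

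In the lists of cytokine, chemokine, NF-kB and interferon-stimulated genes no member reached 1.5-fold, and cytokine genes lay mostly to the lower side. Only 43 of all 5425 named genes (0.793%) passed 1.5-fold in either direction. A count of 0 in a list of this size is thus near the share of all genes, here and in the lists below. Ifna4, Trim30d and Gbp8, of interferon and interferon-inducible families, are outside these lists and passed it. Of 15 bright inflammatory cytokine genes, 0 passed and 14 were below 0, with a median of -0.21 (range -0.44 to 0.34), where 53.3% of all named genes were below 0 and their median was -0.01. The list had a median XCL1 effect of -0.07 in WT and of 0.10 in KO. Il1b, the interleukin-1 beta gene, had signals of 12.21 and 11.86 in WT and 12.42 and 12.43 in KO (-0.36), so it was lower with XCL1 in WT and level in KO. Il1a gave 9.18 and 8.997 in WT and 9.38 and 9.63 in KO (-0.44). Lymphotoxin beta (Ltb) and Tnfsf15 both lay at -0.43. Il27, of the interleukin-12 family, was the member above 0, at 0.34.

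Genes of NF-kB feedback, interferon response and chemokines showed smaller shifts of that sign. NF-kB targets had a median of -0.10, with 18 of 24 below 0 and none past the threshold, among them Tnfaip2 (-0.57), Bcl3, an atypical inhibitor of NF-kB (-0.47), the negative regulator Irak3 (-0.36) and Ptgs2, the inducible cyclooxygenase (-0.33). Interferon-stimulated genes had a median of -0.09, with 22 of 30 below 0, and chemokines one of -0.05, with 10 of 13 below 0. Ifit2, which binds viral RNA, gave 7.52 and 7.35 in WT and 7.83 and 8.17 in KO (-0.51). Bst2, the virus tether, was higher with XCL1 in both pairs, at 9.52 and 10.002 in WT and 9.82 and 10.79 in KO (-0.49). The chemokine gene Ccl9 lay at -0.53 and the neutrophil attractant Cxcl2 and the T cell attractant Cxcl11 at -0.43 and -0.35. The members of these lists share the same 4 arrays and are not independent of each other.

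Maturation, identity and receptor-proximal genes were near the middle of all genes. Of 29 bright maturation genes 0 passed, with a median of -0.04. The co-stimulatory genes Cd40, Cd86 and Cd83 lay at -0.09, -0.03 and -0.01 and the lymph node homing receptor Ccr7 at -0.09. Ido1, which degrades tryptophan, lay at -0.42 and Marcksl1, an actin-binding protein gene, at 0.40. The 16 cDC1 identity genes had a median of 0.01, from -0.13 for Irf8 to 0.26 for Ppt1. Genes of XCR1 and inhibitory G protein signalling had a median of 0.01 and a mean of -0.03 over 27 members and none past the threshold; those farthest from 0 were the G protein regulators Rgs10 (-0.41) and Rgs12 (-0.35), beta-arrestin 2 (Arrb2, 0.22) and the receptor kinase gene Grk3 (-0.20). Xcl1 itself, the ligand gene, had signals of 7.91 and 7.93 in WT and 7.59 and 7.70 in KO (-0.09).

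Actin and migration genes had a median of -0.07 over 33 members, with 0 past the threshold, Coro1a, an actin-binding coronin, at -0.51 and Fscn1, the actin bundler of mature dendritic cells, at -0.34. MHC class I presentation genes had a median of -0.07, with 14 of 19 below 0, Cybb, of the phagocyte oxidase, at -0.38 and H2-K1 at -0.28. MHC class II genes had a median of -0.05 over 12 members, proteasome subunits of -0.04 over 34 and apoptosis genes of -0.10 over 17, with 0 past the threshold in each. Of 9 glycolysis genes, hexokinase 2 (Hk2) lay at -0.54 and the phosphoglycerate mutase gene Pgam1 at 0.48, so its median of -0.06 stands for members on both sides. Of 45 oxidative phosphorylation genes 1 was higher and 1 lower, and of 41 cytosolic ribosomal protein genes 0 were higher and 1 lower, with medians of 0.02 and 0.01.

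**Figure D5:**
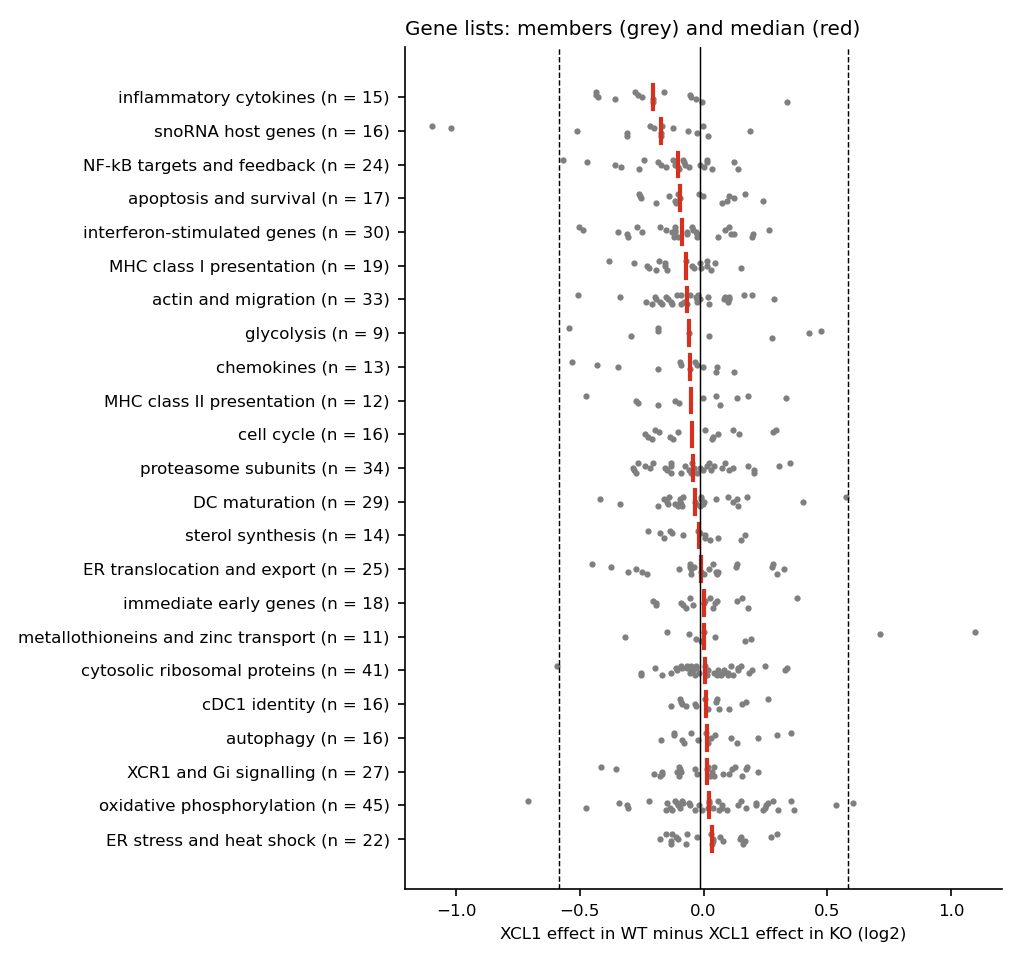
XCL1 effect in WT minus that in KO (x axis, log2) for the bright members of 23 gene lists, with each member as a grey point, the median of a list in red, the median of all 5425 named genes (-0.01) as a solid line and 1.5-fold as dashed lines. Inflammatory cytokines have the lowest median (-0.21), and the points past 1.5-fold belong to the lists of snoRNA hosts, metallothioneins, oxidative phosphorylation and ribosomal proteins.

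MicroRNA genes passed the threshold in 5 of 56 bright cases, 2 higher and 3 lower, beside 6.19% of all bright features in either direction. The array reads the hairpin gene and not the mature strand, so the values say nothing of which strand is present. Mir3097 had signals of 8.07 and 7.82 in WT and 7.40 and 8.04 in KO (-0.89), Mir139 lay at -0.68 and Mir3088 at -0.64. Mir1946a gave 8.69 and 9.27 in WT and 9.10 and 8.98 in KO (0.70), with the change in WT, and Mir92b lay at 0.62. The mature strands of 4 of these genes are given from RefSeq (GRCm38.p6), with the seed (bases 2 to 8) in capitals, to show that no seed is shared among them.
mmu-miR-3097-5p: cACAGGUGggaagugugugucca
mmu-miR-3097-3p: cUCAGACCuuucuaccugucag
mmu-miR-139-5p: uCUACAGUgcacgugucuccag
mmu-miR-139-3p: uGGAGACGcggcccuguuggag
mmu-miR-3088-5p: gCUAUGCAguuguucaugagcu
mmu-miR-3088-3p: uUCAUGAGcagcugcaaaggugu
mmu-miR-92b-3p: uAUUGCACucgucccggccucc
mmu-miR-92b-5p: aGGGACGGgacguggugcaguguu
Mir3097 strands lie at chr5:35021050-35021072 and chr5:35021094-35021115, Mir139 strands at chr7:101475382-101475403 and chr7:101475418-101475439, and Mir3088 strands at chr2:28733286-28733307 and chr2:28733321-28733343, all on the plus strand. Mir92b strands lie at chr3:89227126-89227147 and chr3:89227165-89227188 on the minus strand.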

How the data were processed

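Values were the deposited log2 signals of 4 mouse MoGene 2.0 ST arrays, 1 per group, summarised by the authors per gene-level feature with RMA, per the labels. RMA corrects background, equalises the arrays and summarises probes, so a shift shared by most genes cannot be seen. Software and annotation build were not given in the sources used here. Differences were computed in Python 3.11.15 (pandas 2.3.3, numpy 2.4.6) without tests. With 4 arrays, their number limits the precision. Detection flags were not used, and a mean of 7 is a chosen limit, not a measured background.

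Gene symbols were those of the platform annotation. Of the 9786 features, 5960 carried 1 symbol, 478 several and 3348 none. RefSeq (GRCm38.p6) held the gene ID of 5934 of the 5960 and gave RNA classes, lengths and host genes by overlap. The brightest probe set stood for a gene. Of the bright features, 247 share all 4 values with another feature.

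Members, the 34 gene lists and thresholds were chosen with earlier results of these data known. Genes named were the 15 highest and 15 lowest, up to 4 per pathway list by size, Xcr1, Xcl1 and those at the signal limit. Other genes past the threshold, RNA classes, hosts, markers, second probe sets and further list members were named after their values were seen. Alternatives were a 2-fold threshold, other signal limits, median centring, cyclic loess (span 0.7, 3 iterations) and quantile normalization with limma 3.58.1 (R 4.3.3), probe set and list means, and, chosen after seeing the data, leaving out duplicates, small RNAs and host genes. The counting was tested on simulated data.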

Additional observations from a re-analysis of the deposited data

Results flagged for a closer look

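In 9 named genes the signal moved at least 1.2-fold one way with XCL1 in WT and at least 1.2-fold the other way in KO, with 1 array in each group, and the difference between the genotypes was not tested. In 3 of them the signal was higher with XCL1 in WT and lower in KO, with differences of 1.10 for the metallothionein Mt2, 0.70 for the tubulin cofactor Tbca and 0.68 for the mitochondrial ribosomal protein Mrpl54. In the other 6 it was lower in WT and higher in KO, with differences of -0.96 for Apol10b, -0.90 for Trim30d, -0.86 for Fgr, -0.64 for Edn1, -0.62 for Dpep2 and -0.59 for Gbp8.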

How the results depend on the processing

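At a 2-fold threshold 58 bright features were higher and 55 lower. Of these, 4 were led by the WT pair and 32 by the KO pair, and 77 met neither pattern. Among named genes 1 was higher (Mt2) and 2 lower (Rabggtb, Snhg17), 3 in all. With a mean signal of at least 6, 572 features were higher and 749 lower (155 led by WT, 351 by KO, 815 in neither pattern). Of the named genes, 66 were higher and 70 lower, 136 in all. With a mean of at least 8, 115 were higher and 147 lower (16, 92 and 154), and 6 named genes were higher and 11 lower, 17 in all. With at least 7 on every array, features led by WT numbered 28 and lower named genes 13. These limits change how many features enter. Of the 43 named genes past 1.5-fold, 41 stayed past it with median centring, 40 with cyclic loess, 42 with quantile normalization and 42 with the mean of probe sets, and 0 changed sign in these 4. Loess and quantile normalization turned the sign of 2 lists' medians, ER translocation and sterol synthesis, and of the median of all named genes, each within 0.02 of 0. A limit of 8 turned MHC class II (0.02), ER translocation (0.03) and metallothioneins (-0.03), and a limit of 6 turned cell cycle (0.02), T cell markers (-0.08), plasmacytoid DC markers (-0.02) and the cDC1 (-0.0062), metallothionein (-0.0024) and autophagy (-0.0048) lists. Probe set means turned ribosomal proteins (-0.0011). With list means in place of medians, 6 of 32 list values moved and 26 did not, all named genes counting as a list. A move is a change above the SD of named genes divided by the root of the list's size. By the mean, metallothioneins lay at 0.15 against a median of 0.0034, and snoRNA hosts at -0.26 against -0.17. Scalings moved the median difference by at most 0.02. Leaving out duplicates, small RNAs or host genes kept each count within 1.5 times. With 1 array a group, no replicate could be left out and no paired analysis over replicates was possible. By mean signal, named genes past 1.5-fold were 1.11% at 7 to 8, 0.626% at 8 to 9, 0.44% at 9 to 10, 0.809% at 10 to 11 and 0 of 214 at 11 or above.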
